A study of Homo sapiens with 6 samples.

Results

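Antisense noncoding RNAs were followed in TPC1, an established line of human papillary thyroid cancer cells. The group si-circ_0000839 consists of 3 samples transfected with an siRNA that targets a circular RNA, hsa_circ_0000839, and the group NC of 3 samples of the same line given a negative-control siRNA; both were collected at 60 h. The members were selected on measured levels: they are the genes whose deposited biotype is antisense and whose mean over the 6 libraries was at least 1 FPKM (read counts scaled to gene length and library size). Of the 58735 genes in the deposited table, 5583 had this biotype, 2755 of them had a read in some library, and 194 met the rule. The rule used the mean over both groups, so the levels are a description. In 24 members only 1 group reached a mean of 1 FPKM, with 16 below it in si-circ_0000839 and 8 below it in NC, so their selection is tied to the group in which they are higher. The sequence of neither siRNA is given in the sources used here, and the circular RNA itself was not matched to a gene of the table, so its knockdown was not checked.

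An antisense RNA is transcribed from the strand opposite to another gene, and many are long, spliced and polyadenylated but encode no known protein. Some start beside the promoter of the neighbouring protein-coding gene and run away from it, some overlap its 3′ end, and some lie inside it. Single antisense RNAs are known to act on their partner's transcription, splicing or stability, others host small nucleolar RNAs in their introns, and for most no function is known. Many such transcripts are short-lived because the nuclear RNA exosome degrades them.

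The 4 promoter windows below were chosen from 9 member windows within 50 bases of the deposited start and with at most 30 bases in exons of other genes. Of these 9 genes, SNHG7 and LOXL1-AS1 were the most abundant and had the most and the fewest CG. FBXL19-AS1 and RAB11B-AS1 had the lowest unadjusted p of the 9. All but SNHG7 start head to head with a protein-coding gene and were among the members with a low unadjusted p. SNHG7 was the member with the most reads. Each runs 5′ to 3′ on the minus strand from 250 bases before to 50 bases after the gene's start in RefSeq (GRCh38.p14), at chr16:30923220-30923519 for FBXL19-AS1, chr19:8390642-8390941 for RAB11B-AS1, chr15:73928199-73928498 for LOXL1-AS1 and chr9:136728135-136728434 for SNHG7. Capitals mark CG dinucleotides. None of the 4 windows lies in an exon of another gene, which follows largely from how they were chosen.
FBXL19-AS1: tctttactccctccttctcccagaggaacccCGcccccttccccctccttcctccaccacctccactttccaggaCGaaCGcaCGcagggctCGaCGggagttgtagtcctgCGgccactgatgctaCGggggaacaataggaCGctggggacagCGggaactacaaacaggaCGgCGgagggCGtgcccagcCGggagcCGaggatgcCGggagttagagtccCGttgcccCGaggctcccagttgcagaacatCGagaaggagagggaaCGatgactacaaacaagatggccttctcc
RAB11B-AS1: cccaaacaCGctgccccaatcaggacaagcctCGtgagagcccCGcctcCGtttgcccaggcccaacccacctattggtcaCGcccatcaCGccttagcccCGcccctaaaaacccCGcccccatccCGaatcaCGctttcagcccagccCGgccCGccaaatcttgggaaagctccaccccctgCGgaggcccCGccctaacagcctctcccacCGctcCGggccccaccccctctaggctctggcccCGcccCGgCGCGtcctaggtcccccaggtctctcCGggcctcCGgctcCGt
LOXL1-AS1: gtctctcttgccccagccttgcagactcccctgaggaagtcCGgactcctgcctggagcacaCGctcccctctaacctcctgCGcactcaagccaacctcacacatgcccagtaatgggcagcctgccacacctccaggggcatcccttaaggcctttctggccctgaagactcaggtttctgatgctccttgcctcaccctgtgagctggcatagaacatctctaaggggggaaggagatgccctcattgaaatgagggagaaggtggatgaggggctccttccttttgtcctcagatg
SNHG7: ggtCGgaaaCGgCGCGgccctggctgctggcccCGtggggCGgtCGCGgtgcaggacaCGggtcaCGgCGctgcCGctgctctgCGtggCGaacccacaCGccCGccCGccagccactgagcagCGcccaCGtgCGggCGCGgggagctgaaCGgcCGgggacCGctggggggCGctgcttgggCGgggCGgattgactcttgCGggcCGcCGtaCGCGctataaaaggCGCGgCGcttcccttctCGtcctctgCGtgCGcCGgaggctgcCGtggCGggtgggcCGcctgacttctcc
The windows hold 20 CG in FBXL19-AS1, 23 in RAB11B-AS1, 43 in SNHG7 and 3 in LOXL1-AS1. For 60 members a RefSeq window was found, with a median of 28 CG (quartiles 18.8 and 36). The main partners at 1 FPKM or more had a median of 27 CG in 97 windows, the tested lincRNA genes 20 in 61, and all 35116 RefSeq windows a median of 14. The letters TATAAA, searched on both strands, stood in 3 of the 60 member windows, SNHG7 among them. That is 5%, against 5.16% of the main partners' windows, 4.78% of those of tested protein_coding genes, 8.20% of those of tested lincRNA genes and 11.5% of all windows. The RefSeq start lay within 50 bases of the deposited start for 34 of the 60 members, so the other windows describe the RefSeq start only.

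Which exonic bases an antisense gene shares with the other strand set whether it could be counted at all. Among the 2451 antisense genes with no exonic base inside an exon of the opposite strand, 1061 had a read, which is 43.3%. Where up to 25% of the exonic bases were shared, 987 of 1498 genes had a read (65.9%), and between 75% and 100% it was 69 of 209 (33.0%). Where every exonic base was shared, 0 of 324 antisense genes had a read. The same held for protein_coding genes, with 0 of 18 at full sharing, and for the whole table, with 0 of 761. Reads in exons that overlap on opposite strands were therefore given to neither gene, and a read in the part that is not shared cannot be assigned to a strand. The values of a member thus come from its exonic bases outside the partner's exons, divided by its whole exonic length, and for bases in a partner's intron the partner's unspliced RNA and the antisense RNA cannot be told apart.

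**Figure D1:**
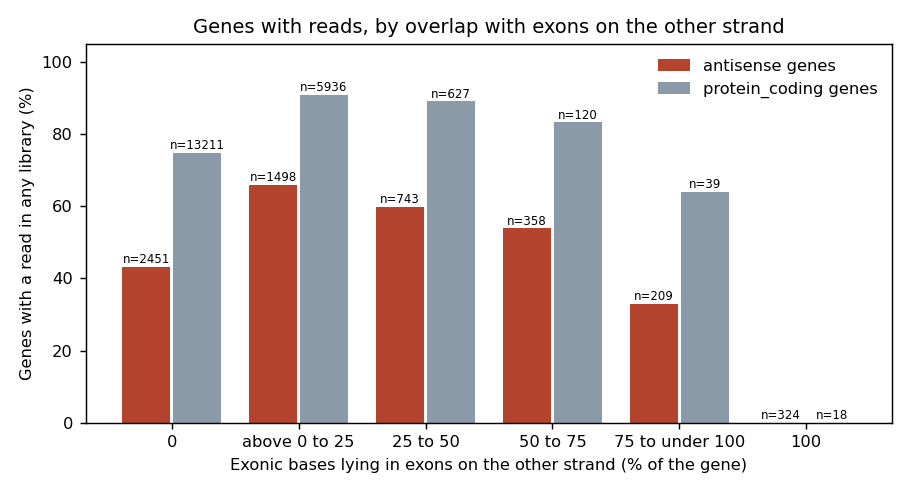
Share of antisense genes with at least 1 read in any of the 6 libraries (y axis, percent) by the percent of their exonic bases that lie in exons of the opposite strand (x axis). The share is 43.3% with no such base and 65.9% with up to 25%, and it is 0 where all bases are shared.

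All 194 members had reads in all 6 libraries. Their mean level had a median of 1.67 FPKM and ran from 1.001 to 37.7 FPKM, with 118 members under 2 FPKM and 10 at or above 10 FPKM. The reads behind a member had a median of 42.6 per library, from 3.67 to 1720, and 9 members rested on a mean of fewer than 10 reads. Just inside the threshold lay AC020916.1 at 1.001 FPKM and PSMA3-AS1 at 1.01 FPKM, and just outside it FOXD3-AS1 and AC105446.1 at 0.997 FPKM each. By symbol, 114 members carried a clone name, 56 a name with the ending -AS and 5 the ending -DT. A single exon block made up 33 members.

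Overlap between the strands was common among the members. In 137 of them some exonic bases lay in exons of other genes, and 75 had no exonic base outside other genes. At least 1 protein_coding gene overlapped 164 members on the other strand, and 29 of these had several partners. By the position of the main partner, the one with the longest overlap, 60 members lay head to head with it, 57 inside it, 40 tail to tail, and 7 contained it, while 30 had no such partner. The main partner reached 1 FPKM for 117 members, and in those pairs the antisense gene had a median of 0.172 times the partner's FPKM. It stood above its main partner in 64 pairs, 17 of them with a partner of at least 1 FPKM.

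The most abundant members were AC099850.3, ZFAS1 and SNHG7. AC099850.3, an antisense gene without a known role here, lies inside PRR11 (chr17:59202677-59203829, minus strand) and had 36.9, 38.6 and 33.2 FPKM in si-circ_0000839 against 41.7, 34.4 and 41.4 FPKM in NC. The groups overlapped, and the log2 difference was -0.11 (SE 0.09; limma, adjusted p = 0.673). No exonic base of AC099850.3 lies outside other genes: 30.2% are in exons and 69.8% in introns of them. PRR11, a proline-rich protein whose expression follows the cell cycle, averaged 21.3 ± 0.997 FPKM in si-circ_0000839 and 21.0 ± 0.842 FPKM in NC (SD, n = 3 each).

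ZFAS1, the host of several C/D box small nucleolar RNAs, starts head to head with ZNFX1 (chr20:49278178-49295738, plus strand). It had 34.1, 37.9 and 35.97 FPKM in si-circ_0000839 against 35.3, 40.4 and 35.7 FPKM in NC, from a mean of 1520 reads in si-circ_0000839 and 1569 in NC. The groups overlapped (log2 difference -0.04, SE 0.08; limma, adjusted p = 0.864). ZNFX1, which overlaps it by 249 bases, averaged 22.8 FPKM in si-circ_0000839 and 22.2 FPKM in NC. With the 46.9% of its exonic bases that are shared left out of the length, ZFAS1 ranked first at 68.9 FPKM per unshared length, before AC099850.3 at 54.0.

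SNHG7, also a host of small nucleolar RNAs, had the most reads (chr9:136721366-136728184, minus strand). Its levels were 20.5, 19.9 and 20.01 FPKM in si-circ_0000839 against 22.4, 23.8 and 19.5 FPKM in NC, from a mean of 1645 reads in si-circ_0000839 and 1794 in NC. NC replicate 3 lay below all si-circ_0000839 libraries, so the groups overlapped (log2 difference -0.11, SE 0.08; limma, adjusted p = 0.613). FGD5-AS1, whose main partner FGD5 was at 0 in every library, had 14.8, 18.1 and 17.3 FPKM in si-circ_0000839 against 18.1, 16.4 and 17.9 FPKM in NC (log2 difference -0.06, SE 0.08; limma, adjusted p = 0.812). NR2C2, which also overlaps FGD5-AS1, by 841 bases, averaged 2.99 FPKM in si-circ_0000839 and 3.02 FPKM in NC. AL606489.1 averaged 16.6 ± 1.49 FPKM in si-circ_0000839 and 15.2 ± 1.83 FPKM in NC, and its groups overlapped as well.

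In 3 of the 10 most abundant members the groups did not overlap, all with si-circ_0000839 below NC; over all tested genes 18.1% did not overlap, 7.55% with si-circ_0000839 lower and 10.6% with it higher. AC093673.1, which overlaps no exon or intron of another gene (chr7:143379692-143380495, minus strand), had 15.2, 16.5 and 16.2 FPKM in si-circ_0000839 against 18.7, 23.4 and 18.3 FPKM in NC. Its log2 difference of -0.31 (SE 0.09) had an unadjusted p of 0.00719 and did not pass the adjustment (limma, adjusted p = 0.218). AC100810.1, inside CLN8, a gene of the endoplasmic reticulum, had 9.94, 9.19 and 9.04 FPKM in si-circ_0000839 against 9.98, 12.3 and 11.7 FPKM in NC (log2 difference -0.24; limma, adjusted p = 0.284). KCCAT198, inside C12orf75, had 10.5, 10.6 and 9.60 FPKM in si-circ_0000839 against 12.1, 11.4 and 11.2 FPKM in NC (log2 difference -0.16, SE 0.07; limma, adjusted p = 0.379). The other 2 of the 10, AC115618.2 and AC083855.2, overlapped between the groups, with log2 differences of -0.09 and -0.14.

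**Figure D2:**
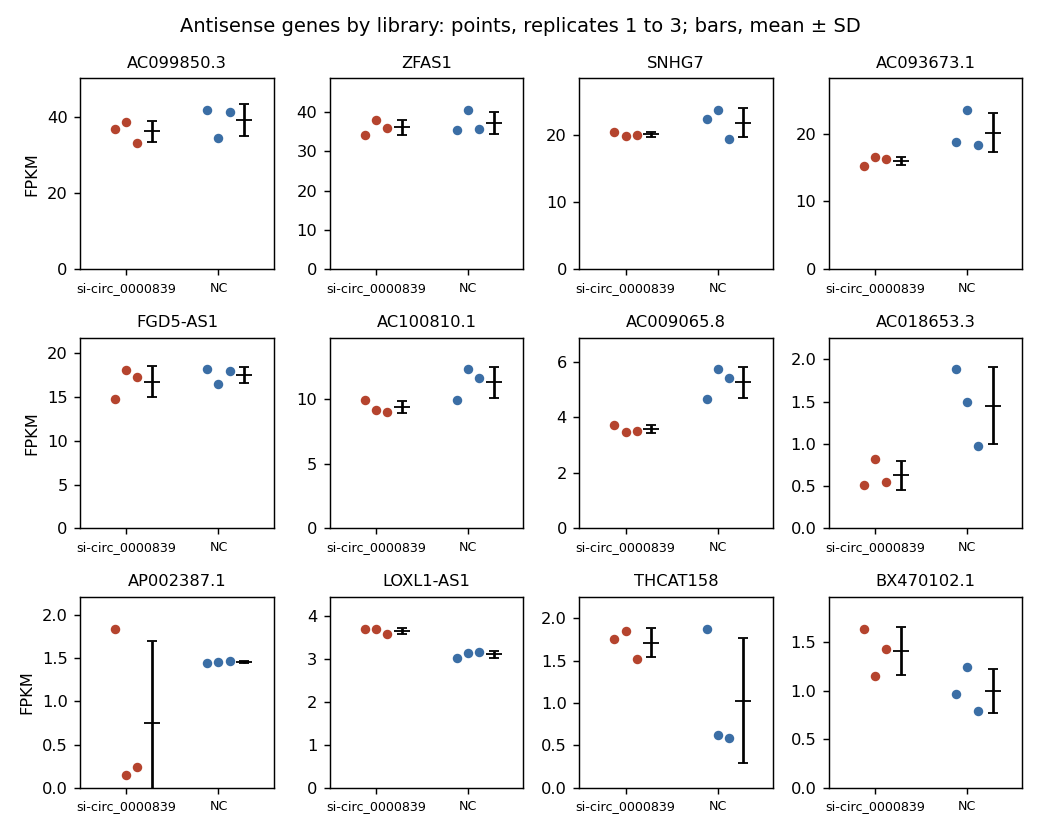
FPKM of 12 antisense genes by library (points, replicates 1 to 3 from left to right) with the mean and SD of each group of 3; each panel has its own y axis from 0, which cuts the SD bar of AP002387.1. In AC093673.1, AC009065.8 and AC018653.3 all si-circ_0000839 libraries lie below all NC libraries, in LOXL1-AS1 all lie above, and in AP002387.1 and THCAT158 a single library of a group stands far from the other 2.

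No member changed past the threshold between the groups. With limma over all 10674 genes of at least 1 FPKM, 41 genes had an adjusted p under 0.05, which is 0.384% of those tested, with 27 lower (0.253%) and 14 higher (0.131%) in si-circ_0000839. That count was 21 without si-circ_0000839 replicate 1, 22 without replicate 3, 25 without NC replicate 1 and 20 without NC replicate 3. Of the 194 members 0 were called, and the smallest adjusted p was 0.0653. At an unadjusted p under 0.05 there were 37 members (19.1%), 30 lower and 7 higher, against 1347 of all tested genes (12.6%), of which 6.31% of those tested were lower and 6.31% higher. Groups without overlap were seen in 36 members (18.6%), 28 lower and 8 higher, against 18.1% of all tested genes, 7.55% lower and 10.6% higher. The total share of members without overlap was near that background. These counts include the 24 members whose selection is tied to the group in which they are higher. Of the 170 members that reached 1 FPKM in each group, 30 (17.6%) had an unadjusted p under 0.05, 25 lower and 5 higher. Groups without overlap were seen in 30 of the 170 (17.6%), 23 lower and 7 higher.

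The differences of the members leaned below 0. The median log2 difference was -0.08 (quartiles -0.19 and 0.04) against 0.01 for all tested genes, and 126 members (64.9%) lay below 0 against 48.2% of all tested genes. For the 170 members that reached 1 FPKM in each group, a subset taken after seeing the data, the median was -0.07 with 64.7% below 0. The median of all 194 members stayed below 0 under every scaling tried. It ran from -0.12 with voom on recovered reads, which does not use log2(FPKM + 1), to -0.04 with a GC and length trend removed. Members took 0.0931%, 0.0979% and 0.0952% of the reads in si-circ_0000839 against 0.106%, 0.10% and 0.103% in NC. Every si-circ_0000839 library was below every NC library in this share, also without the 3 most read members, at 0.0696% to 0.0710% against 0.0734% to 0.0787%.

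Several other gene classes also leaned below 0. The 184 tested lincRNA genes had a median log2 difference of -0.07 with 63.0% below 0, the 282 processed pseudogenes -0.05 with 62.8%, and the 36 processed transcripts -0.05 with 63.9%. The 23 sense_intronic genes, with a median of 31.2 reads, did not lean: their median was 0.007 with 47.8% below 0. The 9666 protein_coding genes had a median of 0.01 with 46.8% below 0, but the 361 of them whose reads fell between the members' quartiles had -0.04 with 61.2%. Of those 361 genes 16.9% had an unadjusted p under 0.05. They share the members' range of reads only, with a median of 72.5 reads against 42.6 for the members. No test between classes was made, and the part of low read number in the members' differences was not tested. Among the members themselves, the 90 with at least 50 reads had a median of -0.11 with 73.3% below 0, and the 104 with fewer reads -0.05 with 57.7%.

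**Figure D3:**
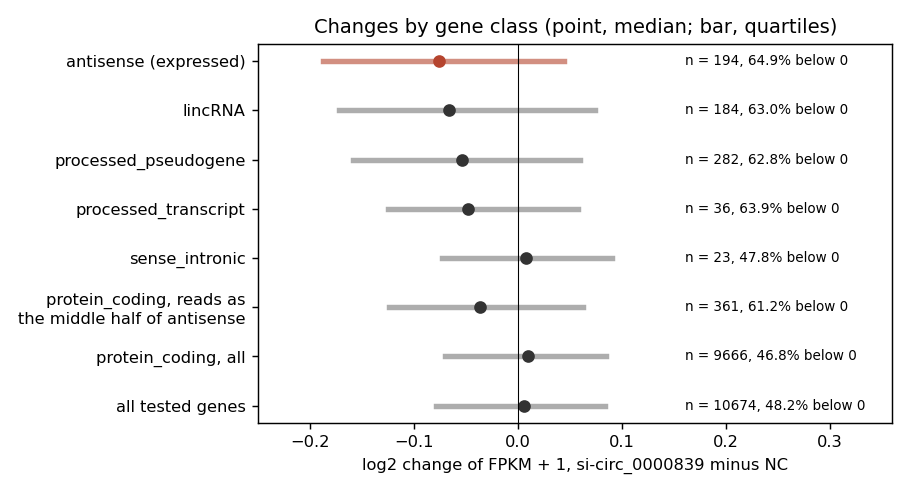
Median (point) and quartiles (bar) of the log2 difference of FPKM + 1, si-circ_0000839 minus NC, by gene class; the text gives the number of genes and the percent below 0. The antisense genes have a median of -0.08 and the lincRNA genes -0.07. The protein_coding genes whose reads fell between the quartiles of the antisense genes have -0.04, and all protein_coding genes 0.01.

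**Figure D4:**
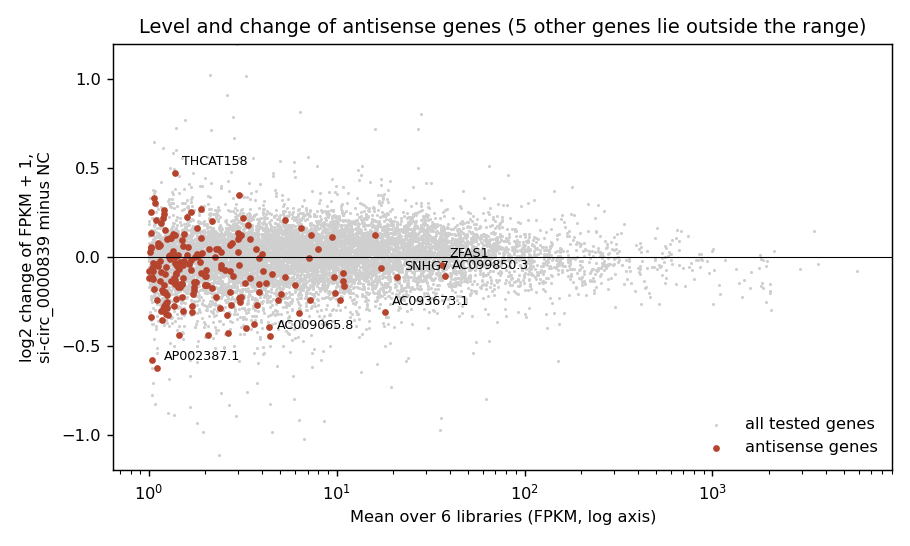
Log2 difference of FPKM + 1 (y axis, si-circ_0000839 minus NC) against the mean FPKM (x axis, log scale) for the antisense genes over all tested genes. The members with the largest differences, AP002387.1 at -0.62 and AC018653.3 at -0.58, have means near 1 FPKM, and members above 10 FPKM lie between -0.31 and 0.12.

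The members were also split by how much of them lies in other genes. The 39 members with at least 90% of their exonic bases outside other genes had a median log2 difference of -0.05, with 22 below 0 and 7 at an unadjusted p under 0.05 (17.9%), all lower. Those with under 10% outside, 81 in number, had -0.11 with 51 below 0 and 15 at an unadjusted p under 0.05 (18.5%), 10 lower and 5 higher. Over all tested genes that share was 12.6%. Between these 2 groups of members no test was made.

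Of the 5 largest differences below 0, 4 came from members with fewer reads than the members' median, and AC009065.8, with more, is described after them. AP002387.1, inside DHCR7 (chr11:71448674-71452157, plus strand), had 1.84, 0.150 and 0.240 FPKM in si-circ_0000839 against 1.44, 1.46 and 1.47 FPKM in NC. These values rest on 23, 2 and 3 reads in si-circ_0000839 against 19, 18 and 19 in NC. Replicate 1 of si-circ_0000839 lay above all NC libraries and the other 2 far below them, so the log2 difference of -0.62 (SE 0.27) did not pass (limma, adjusted p = 0.375). Without that replicate the difference was -1.04 and passed (limma, adjusted p = 0.00512). The mean of AP002387.1 was 0.745 FPKM in si-circ_0000839 and 1.45 FPKM in NC, so its selection is tied to the group in which it is higher. DHCR7, the enzyme of the last step of cholesterol synthesis, averaged 13.6 FPKM in si-circ_0000839 and 13.7 FPKM in NC.

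AC018653.3, head to head with the synaptic adhesion gene CLSTN3 (chr12:7129079-7131198, minus strand), had 0.509, 0.819 and 0.553 FPKM in si-circ_0000839 against 1.88, 1.49 and 0.980 FPKM in NC, from 11, 19 and 12 reads in si-circ_0000839 against 43, 32 and 22 in NC. The groups did not overlap (log2 difference -0.58, SE 0.14; limma, unadjusted p = 0.00163, adjusted p = 0.117). The mean of AC018653.3 was 0.627 FPKM in si-circ_0000839 and 1.45 FPKM in NC, so its selection too is tied to the group in which it is higher. CLSTN3 averaged 4.84 FPKM in si-circ_0000839 and 4.40 FPKM in NC. AL118516.1, with no partner, had 1.38, 1.37 and 2.03 FPKM in si-circ_0000839 against 2.08, 3.04 and 2.43 FPKM in NC, and AL117332.1 had 1.01, 0.731 and 1.51 FPKM in si-circ_0000839 against 1.69, 2.20 and 1.51 FPKM in NC. In neither did the groups overlap, though those of AL117332.1 nearly touched, at 1.506 FPKM in si-circ_0000839 replicate 3 and 1.510 FPKM in NC replicate 3 (both log2 differences -0.44; limma, adjusted p = 0.202 and 0.244). The partner of AL117332.1, the nuclear exonuclease gene XRN2, averaged 34.8 FPKM in si-circ_0000839 and 33.0 FPKM in NC.

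The smallest adjusted p among the members belonged to AC009065.8, whose exonic bases lie wholly in introns of ECI1 and other genes (chr16:2240487-2241818, plus strand). It had 3.74, 3.48 and 3.52 FPKM in si-circ_0000839 against 4.64, 5.72 and 5.40 FPKM in NC, from a mean of 53 reads in si-circ_0000839 and 78 in NC. All si-circ_0000839 libraries were lower than all NC libraries (log2 difference -0.45, SE 0.08; limma, unadjusted p = 0.000302, adjusted p = 0.0653). ECI1, an enzyme of mitochondrial fatty acid oxidation, averaged 64.7 ± 5.43 FPKM in si-circ_0000839 and 73.5 ± 8.21 FPKM in NC (SD, n = 3 each; log2 difference -0.18; limma, adjusted p = 0.461). The ratio of AC009065.8 to ECI1 differed by -0.27 on the log2 scale (limma, adjusted p = 0.162). With the trend on GC content and length removed, AC009065.8 passed the threshold (limma, adjusted p = 0.0251).

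AP000695.1 and CCDC183-AS1, named after their values were seen, came next in adjusted p. AP000695.1, tail to tail with the tight junction gene CLDN14, had 3.54, 3.30 and 4.02 FPKM in si-circ_0000839 against 5.43, 4.74 and 5.06 FPKM in NC (log2 difference -0.40; limma, adjusted p = 0.0973). CCDC183-AS1 had 3.45, 2.77 and 2.85 FPKM in si-circ_0000839 against 4.21, 4.06 and 4.36 FPKM in NC (log2 difference -0.38; limma, adjusted p = 0.108). In both the groups did not overlap.

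Among the members with the largest differences above 0, THCAT158 (chr17:47303460-47323613, minus strand) had 1.76, 1.85 and 1.52 FPKM in si-circ_0000839 against 1.88, 0.617 and 0.589 FPKM in NC. Here NC replicate 1, with 26 reads against 8 and 8 in the other NC libraries, lay above every si-circ_0000839 library. The log2 difference of 0.48 (SE 0.19) did not pass (limma, adjusted p = 0.348), and without NC replicate 1 it was 0.76 and passed (limma, adjusted p = 0.0209). The main partner of THCAT158, AC068234.1, was at 0 in every library. ITGB3, which also overlaps THCAT158, by 8357 bases, averaged 47.3 FPKM in si-circ_0000839 and 43.1 FPKM in NC. AL355312.3, inside the receptor gene LRP11, had 3.32, 5.05 and 2.26 FPKM in si-circ_0000839 against 2.97, 1.94 and 2.52 FPKM in NC, with overlap between the groups. AP003064.2 had 1.39, 1.10 and 1.39 FPKM in si-circ_0000839 against 0.505, 0.863 and 1.13 FPKM in NC, and AL035587.1 had 2.53, 2.32 and 1.64 FPKM in si-circ_0000839 against 1.83, 1.29 and 1.73 FPKM in NC. In both of these the groups overlapped, and the adjusted p values of the 3 genes were 0.489, 0.323 and 0.407 (limma). AP003064.2 had a mean of 0.834 FPKM in NC and reached 1 FPKM only in si-circ_0000839, so its selection is tied to that group.

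AL022328.2 completed the 5 largest differences above 0. It is paired with SELENOO, a mitochondrial selenoprotein gene, and had 1.79, 1.03 and 1.10 FPKM in si-circ_0000839 against 0.966, 0.860 and 0.739 FPKM in NC. Its groups did not overlap (log2 difference 0.30; limma, adjusted p = 0.355). The mean of AL022328.2 was 0.855 FPKM in NC and reached 1 FPKM only in si-circ_0000839, so its selection is tied to that group. SELENOO averaged 16.01 FPKM in si-circ_0000839 and 17.5 FPKM in NC.

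Each antisense gene was then set against its partner within the same library. The difference between the groups in log2(FPKM + 1) of the antisense gene minus that of the partner was fitted over 1278 overlapping opposite-strand pairs of any biotype, of which 12 (0.939%) had an adjusted p under 0.05 and 200 (15.6%) an unadjusted p under 0.05. Of the 138 pairs of a member with a protein_coding gene of at least 1 FPKM, which hold 125 members, 1 was called and 26 (18.8%) had an unadjusted p under 0.05, 20 lower and 6 higher. The ratio was below 0 in 101 of these pairs, with a median of -0.11. In the fit of single genes, none of the 117 main partners of at least 1 FPKM was called. The other 47 main partners were not tested.

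The called pair was BX470102.1 and S100A6, which lie tail to tail with an overlap of 517 bases, 23 of them exonic in both (BX470102.1 at chr1:153533603-153535115, plus strand). BX470102.1 had 1.64, 1.15 and 1.43 FPKM in si-circ_0000839 against 0.971, 1.24 and 0.791 FPKM in NC, from 16, 12 and 14 reads in si-circ_0000839 against 10, 12 and 8 in NC. The groups of BX470102.1 alone overlapped (log2 difference 0.27; limma, adjusted p = 0.366). S100A6, a calcium-binding protein gene abundant in many epithelial tumour cells, had 956, 878 and 919 FPKM in si-circ_0000839 against 1054, 1221 and 1038 FPKM in NC. Its si-circ_0000839 libraries all lay below those of NC (log2 difference -0.26; limma, adjusted p = 0.261). S100A6 passed the threshold with voom on recovered reads (adjusted p = 0.0446) and with the GC and length trend removed (adjusted p = 0.0312). The log2 ratio was -8.50, -8.68 and -8.56 in si-circ_0000839 against -9.06, -9.09 and -9.18 in NC, higher by 0.53 (SE 0.07; limma, adjusted p = 0.00990). This call was lost without si-circ_0000839 replicate 3 (adjusted p = 0.0625), without the filter on low values (adjusted p = 0.114), under quantile normalization (adjusted p = 0.0741) and on recovered reads (adjusted p = 0.164), and over the alternatives the adjusted p ran from 0.00725 to 0.164.

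**Figure D5:**
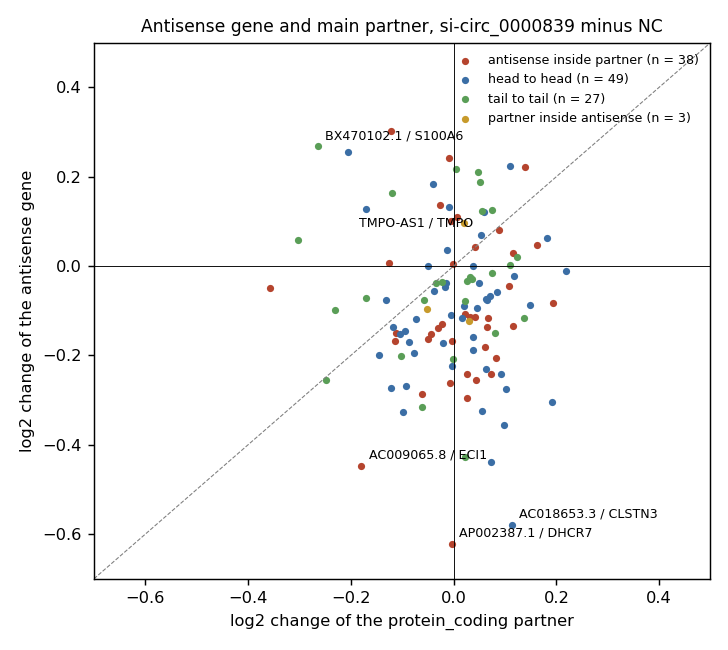
Log2 difference (si-circ_0000839 minus NC, FPKM + 1) of the antisense gene (y axis) against that of its main protein_coding partner (x axis) for the 117 pairs with a partner of at least 1 FPKM, coloured by arrangement; the dashed line marks equal differences. Partners have a median of 0.02 and antisense genes -0.09, and the pair of BX470102.1 and S100A6 lies at 0.27 for BX470102.1 and -0.26 for S100A6.

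Across arrangements the partners' medians lay near 0. The 49 head-to-head pairs had a median log2 difference of -0.09 for the antisense gene and 0.02 for the partner, the 38 pairs with the antisense gene inside the partner -0.12 and 0.01, and the 27 tail-to-tail pairs -0.03 and 0.02. Among all members, 75% of the head-to-head ones lay below 0, 63.2% of those inside a partner, 62.5% of the tail-to-tail ones and 50% of the 30 without a partner. At an unadjusted p under 0.05 there were 13 of the 60 head-to-head members (21.7%), 12 lower and 1 higher, 9 of the 40 tail-to-tail ones (22.5%), 8 of the 57 inside a partner (14.04%), 2 of the 7 that contain one (28.6%) and 5 of the 30 without a partner (16.7%), against 12.6% of all tested genes. The classes were not tested against each other.

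Several head-to-head members had low unadjusted p values, and the 3 named here first were chosen after their values were seen. CTBP1-DT, which starts beside the transcriptional corepressor gene CTBP1, had 1.09, 0.819 and 1.13 FPKM in si-circ_0000839 against 1.57, 1.45 and 1.53 FPKM in NC (log2 difference -0.33; limma, adjusted p = 0.203). FBXL19-AS1, beside the CpG-island-binding F-box gene FBXL19, had 1.17, 1.248 and 1.33 FPKM in si-circ_0000839 against 1.81, 1.601 and 1.94 FPKM in NC (log2 difference -0.31; limma, adjusted p = 0.203). RAB11B-AS1, beside the endosome recycling GTPase gene RAB11B, had 1.79, 1.41 and 1.13 FPKM in si-circ_0000839 against 2.01, 1.90 and 1.91 FPKM in NC (log2 difference -0.28; limma, adjusted p = 0.318). In each of the 3 every si-circ_0000839 library lay below every NC library, and none passed the adjustment. CTBP1 averaged 18.1 FPKM in si-circ_0000839 and 17.4 FPKM in NC, and FBXL19 averaged 31.6 FPKM in si-circ_0000839 and 27.6 FPKM in NC. The log2 ratio to the partner differed by -0.38 for CTBP1-DT, -0.50 for FBXL19-AS1 and -0.38 for RAB11B-AS1, with adjusted p values of 0.0777, 0.0780 and 0.0930 (limma over all pairs). With voom on recovered reads the pairs of CTBP1-DT and FBXL19-AS1 passed (adjusted p = 0.0117 and 0.0210). The FBXL19-AS1 pair also passed without NC replicate 2 (adjusted p = 0.0365) and with the GC and length trend removed (adjusted p = 0.0395).

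LOXL1-AS1, which starts inside LOXL1, a gene for an enzyme that crosslinks elastin and collagen, leaned the other way. It had 3.69, 3.71 and 3.58 FPKM in si-circ_0000839 against 3.02, 3.14 and 3.16 FPKM in NC, from a mean of 291 reads in si-circ_0000839 and 247 in NC. All si-circ_0000839 libraries lay above all NC libraries (log2 difference 0.18, SE 0.07; limma, unadjusted p = 0.0295, adjusted p = 0.335). LOXL1 averaged 24.9 FPKM in si-circ_0000839 and 25.5 FPKM in NC. TMPO-AS1, head to head with TMPO, a nuclear lamina protein gene, had 1.51, 1.79 and 1.68 FPKM in si-circ_0000839 against 1.44, 1.47 and 1.38 FPKM in NC, also without overlap (log2 difference 0.13; limma, adjusted p = 0.578). TMPO averaged 17.2 ± 1.70 FPKM in si-circ_0000839 and 19.4 ± 1.02 FPKM in NC (SD, n = 3 each).

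Of a list of 40 known antisense RNAs 8 were members, none of them called. SBF2-AS1 averaged 1.44 FPKM in si-circ_0000839 and 1.49 FPKM in NC, THAP9-AS1 averaged 1.38 FPKM in each group, and NNT-AS1 averaged 1.14 FPKM in si-circ_0000839 and 1.29 FPKM in NC. PSMA3-AS1, antisense to a gene of the proteasome core, averaged 0.953 FPKM in si-circ_0000839 and 1.06 FPKM in NC (log2 difference -0.08; limma, adjusted p = 0.761). Its mean thus reached 1 FPKM only in NC. Its groups did not overlap but nearly touched, at 1.029 FPKM in si-circ_0000839 replicate 2 and 1.032 FPKM in NC replicate 2. The adjusted p was 0.932 for SBF2-AS1, 0.997 for THAP9-AS1 and 0.747 for NNT-AS1 (limma). NNT, the mitochondrial transhydrogenase gene opposite NNT-AS1, averaged 5.32 FPKM in si-circ_0000839 and 5.11 FPKM in NC.

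Members with a published cellular role, named after their values were seen, also gave no call. NRAV, known as a negative regulator of the antiviral response, had 9.81, 10.2 and 9.55 FPKM in si-circ_0000839 against 9.19, 9.09 and 8.90 FPKM in NC, without overlap (log2 difference 0.11; limma, adjusted p = 0.546). NKILA, which is known to bind NF-kappaB, averaged 1.29 FPKM in si-circ_0000839 and 1.31 FPKM in NC, and its partner PMEPA1 averaged 44.8 FPKM in si-circ_0000839 and 38.3 FPKM in NC. ABALON, antisense to the antiapoptotic gene BCL2L1, averaged 2.33 FPKM in si-circ_0000839 and 2.22 FPKM in NC, and BCL2L1 averaged 60.5 FPKM in si-circ_0000839 and 53.9 FPKM in NC. The small nucleolar RNA host SNHG12 averaged 4.36 FPKM in si-circ_0000839 and 4.72 FPKM in NC (limma, adjusted p = 0.672).

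The genes of the exosome and its nuclear adaptors, which degrade many antisense transcripts, were read from a separate list. Of 23 tested, 0 were called by limma, 1 had an unadjusted p under 0.05 (4.35%) and 10 lay below 0 (43.5%). Over all tested genes these shares were 0.384%, 12.6% and 48.2%. The median log2 difference of the 23 was 0.01. TENT4B and ZFC3H1, also on the list, were under 1 FPKM and not tested. DIS3, a catalytic nuclease of the exosome, had the smallest p, with 1.57 ± 0.329 FPKM in si-circ_0000839 and 2.17 ± 0.283 FPKM in NC (SD, n = 3 each; log2 difference -0.31, SE 0.11; limma, adjusted p = 0.296).

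The libraries held 18399558 to 19334633 reads on genes. PAX8, a thyroid transcription factor, averaged 96.3 FPKM in si-circ_0000839 and 95.8 FPKM in NC, whereas NKX2-1, TSHR and SLC5A5 were at 0. Of 5 leukocyte markers 0 reached 1 FPKM, with PTPRC and CD3E at 0, of 4 endothelial markers 0 did, and of 5 fibroblast markers 1, LUM, with 15.8 FPKM in si-circ_0000839 and 22.5 FPKM in NC. COL1A1 averaged 0.565 FPKM in si-circ_0000839 and 0.370 FPKM in NC, PDGFRB averaged 0.197 FPKM in si-circ_0000839 and 0.136 FPKM in NC, and DCN and COL1A2 were near 0. The summed fibroblast markers, nearly all LUM, ran from 14.5 to 19.1 FPKM in si-circ_0000839 and from 20.1 to 25.2 FPKM in NC. The part of LUM or of these markers in the members' differences was not tested. In whole-culture RNA, fewer cells with a transcript and less of it per cell cannot be told apart.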

How the data were processed

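Total RNA from 6 TPC1 samples was sequenced. Per the submitters' processing notes the tools were HISAT2 2.0.5 and featureCounts 1.5.0-p3. Strand setting, genome build and library scaling: not given in the sources used here. The authors deposited FPKM for 58735 genes with coordinates, lengths and biotypes, per the file headers. All coordinates and exonic lengths equal those of GENCODE release 29 (GRCh38), which supplied exons and, for 27 genes listed as spreadsheet dates, symbols. FPKM times length gave whole reads (within 0.01) for 100% of values.

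From the deposited FPKM, log2(FPKM + 1) was tested with limma 3.58.1 (trended prior, two-sided, R 4.3.3) over genes whose mean reached 1 FPKM, with Benjamini-Hochberg adjustment and a threshold of 0.05; this scale understates changes of low genes. Pair ratios were tested likewise. Replicate libraries differed beyond sampling noise (chi-square per degree of freedom 2.98 to 9.95). Groups come from the titles. No label names separate cultures, and the spread behind the p-values is only that between samples, which may be technical. Named members are the 10 highest, the 5 largest differences in each direction, those on a list of 40 known antisense RNAs, and partners; other names are marked as chosen after their values were seen. Members and lists were chosen with earlier results of these data known. The code was tested on simulated data. Python 3.11.15 was used for the annotation. Results of some genes are not reported here.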

Additional observations from a re-analysis of the deposited data

How the results depend on the processing

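Members called were 0 under both other pseudocounts, no filter, a 5 FPKM minimum, quantile, TPM and median-ratio scaling, an untrended prior and voom. The exceptions were 2 with the GC and length trend removed (AC009065.8 and CCDC183-AS1), 1 without si-circ_0000839 replicate 1 (AP002387.1), 1 without NC replicate 1 (THCAT158) and 1 with NC replicate 2 and si-circ_0000839 replicate 1 both left out (AP002387.1), giving 0 to 1 over single left-out libraries. Genes called overall were 4 without a filter, 68 at a 5 FPKM minimum, 63 with quantile normalization, 56 with TPM, 85 with voom, 224 with GC and length removed, 26 without both libraries and 20 to 38 without any 1. The members' median was -0.11 with a pseudocount of 0.1 and also at a 5 FPKM minimum, -0.12 with voom, -0.0406 with GC and length removed and -0.10 for members of at least 2 FPKM. Member pairs called were 0 without a filter, at 5 FPKM and with quantile normalization, 2 with TPM, 5 with voom, 2 with GC and length removed, 5 without both libraries and 0 to 4 without any 1 (0 without si-circ_0000839 replicate 3, 4 without NC replicate 2). The pairs added were CCDC183-AS1 with RABL6 (TPM, voom, without NC replicate 2, without both libraries), FBXL19-AS1 with FBXL19 (voom, without NC replicate 2, without both libraries, GC and length removed), and CTBP1-DT with CTBP1, AC018653.3 with CLSTN3 and AC009133.1 with MVP (voom), among others. The cause of these shifts was not tested.

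For members and partners named by rule, together with the called pair, 720 comparisons with an alternative kept direction and side of the threshold. In 23 the direction changed, all of them of genes that were not called. In 6 a gene passed the threshold only under the alternative, and in 4 the call of the pair was lost. Leaving out libraries 1 at a time, the log2 difference ran from -0.0125 to 0.0499 for PRR11, -0.046 to 0.114 for PSMA3, -0.00471 to 0.0983 for NNT, -0.0932 to 0.0393 for LOXL1, -0.0871 to 0.0661 for DHCR7, -0.0789 to 0.0181 for ZFAS1, -0.0125 to 0.0862 for CLN8, -0.118 to 0.0186 for FGD5-AS1, -0.0604 to 0.000678 for SBF2-AS1 and -0.0836 to 0.0538 for THAP9-AS1. Without both libraries ZFAS1 was at 0.0552 and THAP9-AS1 at -0.0830; with median-ratio scaling THAP9-AS1 was at -0.00695, with TPM DHCR7 at 0.0176, and with GC and length removed CLN8 at -0.0227, AC115618.2 at 0.0116 and PIK3C2B at -2.8e-05.

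No label says that equal replicate numbers pair the samples. The deviations of same-numbered libraries from their group means correlated at -0.15, -0.29 and 0.15, and si-circ_0000839 replicate 1 correlated best with NC replicate 2 (0.35). Deviations within a group of 3 are tied together, so these correlations cannot show whether the samples were handled in pairs. With a replicate block 35 genes, 0 members and 1 member pair were called. With 3 libraries a group and a median of 42.6 reads a member, small differences of most members could not be resolved.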

Other observations

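Of the 40 known antisense RNAs on the list, 32 are no members. Some carry another biotype in the table but are expressed: EPB41L4A-AS1 averaged 6.94 ± 0.611 FPKM in si-circ_0000839 and 6.87 ± 0.386 FPKM in NC, and MIR22HG, the host of a microRNA, averaged 3.10 ± 0.340 FPKM in si-circ_0000839 and 3.32 ± 0.483 FPKM in NC (SD, n = 3 each). PAX8-AS1, antisense to the thyroid factor gene PAX8, averaged 1.67 ± 0.0754 FPKM in si-circ_0000839 and 1.97 ± 0.333 FPKM in NC (log2 difference -0.15; limma, adjusted p = 0.587). Over the 6 such genes at 1 FPKM or more the adjusted p ran from 0.587 to 0.969 (limma).

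Antisense RNAs of the HOX clusters were near or at 0. HOXA-AS2 was the highest of them at 0.373 ± 0.0688 FPKM in si-circ_0000839 and 0.348 ± 0.0341 FPKM in NC, while HOTAIRM1, HAGLR and HOXB-AS1 were at 0 in every library. CDKN2B-AS1, antisense to the cell cycle inhibitor gene CDKN2B, averaged 0.0860 ± 0.0220 FPKM in si-circ_0000839 and 0.141 ± 0.0113 FPKM in NC, and DLEU2 averaged 0.546 ± 0.0711 FPKM in si-circ_0000839 and 0.691 ± 0.109 FPKM in NC (SD, n = 3 each); both lie under the 1 FPKM minimum and were not tested. A listed 0 in a gene whose exons overlap the other strand can come from the counting, since reads in such exons were given to neither gene.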
